A study of Mus musculus with 10 samples.

Results

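The retina of the rd10 mouse was compared with that of wild-type (WT) mice at postnatal day 36 (P36), when most rods of this model have been lost. The series holds 10 RNA-seq libraries of retinas from female mice, with DMSO given to 3 rd10 mice (D1, D2, D3) and to 4 mice labelled WT (W1 to W4) and halofantrine given to a further 3 rd10 mice. The rd10 mice were of the strain B6.CXB1-Pde6b rd10/J, bred by intercross, and the strain of the WT mice was not given in the sources used here. Each injected mouse was anaesthetised with ketamine and xylazine, received 1 μL into the vitreous at P10 and again at P24, and was collected at P36, so the vehicle and both injections are shared by the groups compared. WT libraries and D1 and D2 belong to batch 1 of the labels and D3 to batch 2. The sample titles also name a set1 for W1 to W3, the same with a suffix for W4, a set2 for D1 and D2 and neither for D3. As what a set is was not given, set and genotype cannot be told apart. The comparison used 6 of the 10 libraries, D1 to D3 against W1 to W3, and sets the diseased retina under vehicle against the healthy one. The samples carry separate names, but whether a library holds 1 or both retinas of a mouse was not given, so p-values measure the spread between these libraries.

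The library W4 was left out, chosen by its measured values, those of rod transcripts and its place among the rd10 libraries. In it Gnat1, the alpha subunit of rod transducin, was at 501 counts-per-million (CPM), below all rd10 DMSO libraries, against 14993, 14673 and 16102 CPM in W1 to W3. Its Euclidean distance over log2 CPM of the genes tested was 91.4 to 95.5 to W1, W2 and W3 and 24.01 to 43.7 to D1, D2 and D3, whereas W1 to W3 lay 18.3 to 29.1 from each other. Genes of rods and of the photoreceptor lists are therefore given as a description, by level and size of change. With W4 kept in the WT group as labelled, edgeR's quasi-likelihood test called 0 genes at an adjusted p under 0.05 (3108 at an unadjusted p under 0.05), limma-voom called 0 (2832 at an unadjusted p under 0.05) and DESeq2 called 589, so the calls given here are not independent of that choice.

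Rods turn light into a fall of cGMP. In the rod outer segment the light-activated receptor switches on the G protein transducin (Gnat1), which activates the phosphodiesterase of Pde6a, Pde6b and Pde6g, and the cGMP-gated channel of Cnga1 and Cngb1 closes. The rd10 mouse carries a mutation of Pde6b, and its rods degenerate in the weeks after birth while cones, which use their own opsins, transducin and phosphodiesterase, are lost later. Muller glia, the radial glia of the retina, and microglia, its resident immune cells, are known to react to the death of photoreceptors. In a retina as a whole, fewer cells of a type and less RNA per cell cannot be told apart.

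Promoter windows of genes that turn up in the results below are printed to show the motifs that were searched. They come from RefSeq (build GRCm38.p6) and run from 250 bases before to 50 bases after the annotated start, written 5′ to 3′ on the strand of the gene. Capitals mark matches on either strand to TAATCC (the core bound by the photoreceptor factors CRX and OTX2), TGCTGA (part of the site of the rod factor NRL), TTCCNGGAA (a STAT site) or the core of the interferon-stimulated response element (GAAA, then 2 bases of any kind, then GAAA). The first 4 belong to rod phototransduction genes, Sag at chr1:87803430-87803729 (plus strand), Gngt1 at chr6:3993758-3994057 (plus), Cnga1 at chr5:72642703-72643002 (minus) and Pde6b at chr5:108388123-108388422 (plus). The last 3 belong to genes that were gained in rd10 (lost and gained genes had an adjusted p under 0.05 and a change of at least 1 on the log2 scale), Gfap at chr11:102897151-102897450 (minus), Steap4 at chr5:7960222-7960521 (plus) and B2m at chr2:122147437-122147736 (plus).
Sag: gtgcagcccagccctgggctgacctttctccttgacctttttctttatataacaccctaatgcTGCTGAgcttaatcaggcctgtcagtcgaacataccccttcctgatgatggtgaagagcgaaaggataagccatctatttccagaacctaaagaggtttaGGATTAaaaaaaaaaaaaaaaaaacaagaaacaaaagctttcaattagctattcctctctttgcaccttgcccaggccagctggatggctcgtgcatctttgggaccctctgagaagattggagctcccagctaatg
Gngt1: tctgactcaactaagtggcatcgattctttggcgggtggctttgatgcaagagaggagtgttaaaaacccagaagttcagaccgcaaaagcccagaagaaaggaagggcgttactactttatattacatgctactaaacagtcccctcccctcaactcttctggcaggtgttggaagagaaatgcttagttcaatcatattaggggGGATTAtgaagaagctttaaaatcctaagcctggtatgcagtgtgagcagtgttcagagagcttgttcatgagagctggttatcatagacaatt
Cnga1: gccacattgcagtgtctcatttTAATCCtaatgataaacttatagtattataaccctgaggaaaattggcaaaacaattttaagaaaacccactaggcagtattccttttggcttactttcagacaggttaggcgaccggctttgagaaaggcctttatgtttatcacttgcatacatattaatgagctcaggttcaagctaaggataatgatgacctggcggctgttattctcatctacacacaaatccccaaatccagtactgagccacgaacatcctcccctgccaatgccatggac
Pde6b: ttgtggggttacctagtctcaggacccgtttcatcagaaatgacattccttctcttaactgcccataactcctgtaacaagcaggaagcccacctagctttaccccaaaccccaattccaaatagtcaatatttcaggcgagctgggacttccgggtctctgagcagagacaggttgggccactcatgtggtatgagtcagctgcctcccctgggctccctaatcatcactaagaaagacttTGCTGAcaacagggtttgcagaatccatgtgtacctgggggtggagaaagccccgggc
Gfap: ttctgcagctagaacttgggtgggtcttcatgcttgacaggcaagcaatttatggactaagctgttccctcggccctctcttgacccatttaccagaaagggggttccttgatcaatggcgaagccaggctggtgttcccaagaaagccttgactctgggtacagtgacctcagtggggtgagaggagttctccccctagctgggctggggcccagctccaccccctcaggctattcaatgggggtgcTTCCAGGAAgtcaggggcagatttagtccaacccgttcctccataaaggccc
Steap4: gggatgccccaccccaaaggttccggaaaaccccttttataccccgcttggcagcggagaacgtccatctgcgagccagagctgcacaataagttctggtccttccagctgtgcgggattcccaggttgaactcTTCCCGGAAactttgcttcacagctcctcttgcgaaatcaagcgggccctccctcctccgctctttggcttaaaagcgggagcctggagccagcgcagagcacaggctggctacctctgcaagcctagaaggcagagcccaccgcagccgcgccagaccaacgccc
B2m: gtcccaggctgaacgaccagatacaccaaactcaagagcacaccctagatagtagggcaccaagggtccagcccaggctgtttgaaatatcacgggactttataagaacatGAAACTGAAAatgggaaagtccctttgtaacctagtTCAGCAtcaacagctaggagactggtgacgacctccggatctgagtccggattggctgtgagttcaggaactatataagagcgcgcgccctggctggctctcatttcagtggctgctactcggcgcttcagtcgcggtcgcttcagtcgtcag

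Among genes with a single window in the table, TAATCC was found in 7 of 11 rod phototransduction genes (63.6%), in 53 of 402 lost genes (13.2%) and in 416 of all 6970 genes tested (5.97%). TGCTGA was found in 4 of the 11 (36.4%), in 65 lost genes (16.2%) and in 1011 genes in all (14.5%). Among 379 gained genes the STAT site was found in 8 (2.11%) and the interferon element in 22 (5.80%), against 1.28% and 2.70% of all genes tested and 0.746% and 1.24% of lost genes. A window was thus at hand for 11 of the 18 phototransduction genes. These shares describe the sequence only. A match is not evidence that a factor binds, and a window without a match says only that these letters are absent from it.

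The rd10 retina differed from WT over a large part of the genes measured. The deposited gene table held 11702 genes, after a filter that is not given in the sources used here, and 11696 of them were tested. A gene low in WT may have passed that filter only through its rd10 level. Counts of gained genes in lists that hold such genes are therefore a description, and the share over all genes is no exact background for them. Of these, 3778 (32.3%) were higher in rd10 and 3502 (29.9%) were lower at an adjusted p under 0.05. Genes that passed and changed by at least 1 on the log2 scale are called gained (626 genes, 5.35%) and lost (764 genes, 6.53%). Large losses outnumbered large gains, with 245 genes lower by at least 2 on the log2 scale and 82 by at least 3, against 73 and 21 higher. The 3 libraries of each group did not overlap for 8087 genes (69.1%). Lost genes held 21.4%, 21.7% and 22.1% of all counts in W1 to W3 and 4.52%, 4.75% and 6.70% in D1 to D3, while gained genes held 1.42% to 1.57% in WT and 4.05% to 4.59% in rd10.

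These counts depend on the scale. Counts are relative to the total of a library, which rod transcripts no longer fill in rd10. The main scale (TMM over the 6 libraries compared) put the median change of all genes at -0.01 on the log2 scale. CPM are given here with TMM factors of all 10 libraries. Scaled by library size alone, 5409 genes were higher and 2031 lower with a median of 0.19. On that scale 1290 genes were gained and 574 lost, so gained genes outnumbered lost ones. Scaled on marker genes of bipolar, amacrine, ganglion and horizontal cells, the inner retinal neurons, which are known to outlast the rods in this model, 813 genes (6.95%) were higher and 8279 (70.8%) lower, with a median of -0.63. On that scale all 764 lost genes were still called lower and 559 of the 626 gained genes were still called higher, 126 of them by at least 1. Where a group of genes turns its direction on the inner neuron scale, this is said beside it.

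**Figure D1:**
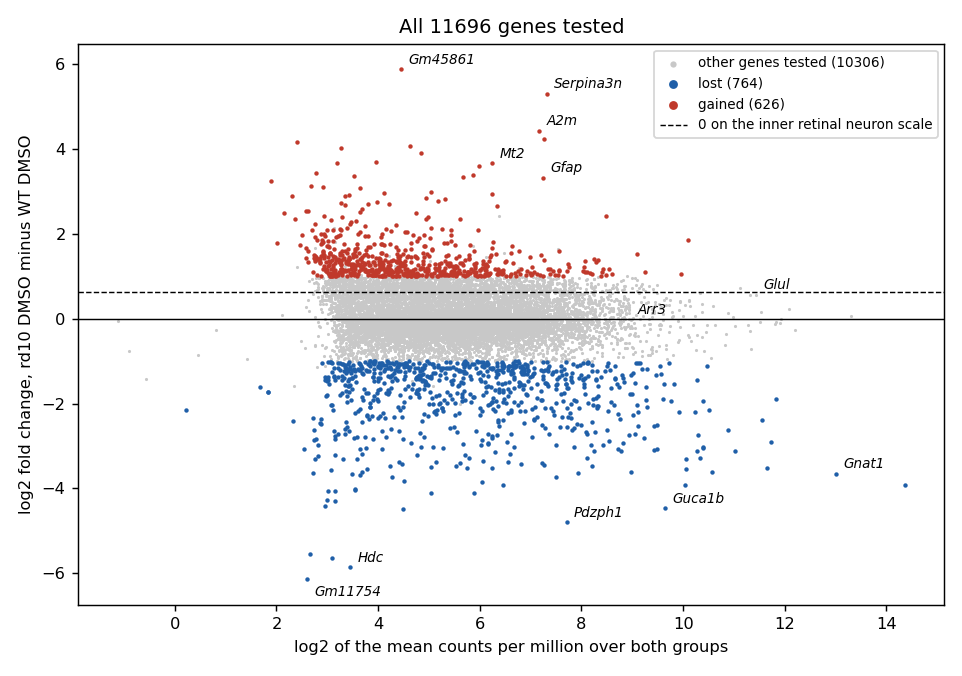
Log2 fold change of rd10 DMSO minus WT DMSO (y axis) against the log2 of the mean CPM over both groups (x axis) for each gene tested, 1 dot a gene. Lost genes (blue, 764) reach -6.14 at Gm11754, and the gained genes (red, 626) reach 5.88 at Gm45861. The dashed line marks where 0 lies on the inner retinal neuron scale.

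Transcripts of the rod phototransduction cascade were low in rd10. All 18 of its genes had a log2 fold change of -1 or less, with a median of -3.11 (-3.69 on the inner neuron scale). Their share of all counts was 7.388%, 7.502% and 7.679% in W1 to W3 and 0.498%, 0.516% and 1.36% in D1 to D3. For Pde6b itself (ENSMUSG00000029491) the WT libraries W1 to W3 held 2699, 2849.8 and 2855 CPM and the rd10 libraries 133, 157 and 387 CPM. These genes also led to W4 being left out, so their values are a description. Since Pde6b is a rod transcript, its level does not tell the genotype apart from the loss of rods.

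In what follows, 3 values in a row are those of W1, W2 and W3 for WT and of D1, D2 and D3 for rd10, and a number alone in brackets is a log2 fold change of rd10 minus WT. Gnat1 was at 14993, 14673 and 16102 CPM in WT and at 758, 819.7 and 2025 CPM in rd10, a mean 12.7-fold lower. Gngt1, its gamma subunit, was at 793, 723 and 875 CPM and at 85.6, 83.8 and 144 CPM. In both genes D3, the library of batch 2, kept more transcript than D1 and D2, and none of the rd10 libraries came near WT. The other subunits of the phosphodiesterase followed Pde6b (-3.63), with Pde6a at -3.13 and Pde6g at -3.29 on the log2 scale, and so did the channel subunits Cnga1 (-3.11) and Cngb1 (-3.10).

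Genes that end the light response and restore cGMP differed in how much was left. Guca1b, an activator of guanylate cyclase, was at 1467, 1564 and 1552 CPM in WT and 51.2, 47.7 and 108 CPM in rd10, a log2 fold change of -4.47. Its neighbour in function Guca1a, which cones also use, changed by -2.62. The cyclases Gucy2f and Gucy2e changed by -3.63 and -2.53. Rgs9, which speeds the shut-off of transducin in rods and cones and is also known from other neurons, was the least lowered of the list, at 955, 937 and 1022 CPM in WT and 179, 187 and 403 CPM in rd10 (-1.91). Arrestin (Sag, -2.40) and the receptor kinase Grk1 (-2.63), which end the light response and are shared with cones in the mouse, lay between these.

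**Figure D2:**
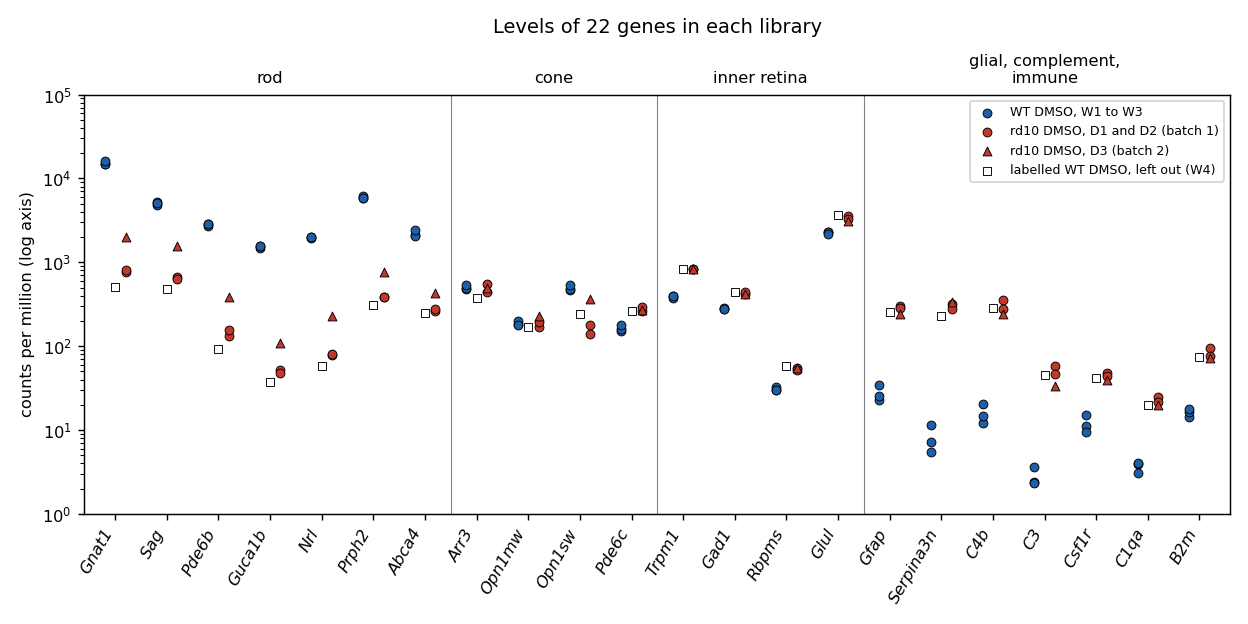
CPM (y axis, log scale) of 22 genes (x axis) in each library of the comparison, with WT libraries in blue, rd10 DMSO libraries in red (D3 as a triangle) and the omitted library W4 as an open square. The rod genes lie far below WT in all rd10 libraries, Arr3 and Opn1mw overlap between the groups, and the glial, complement and immune genes lie above all 3 WT libraries.

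Structural genes of the photoreceptor were low as well. All 20 genes of the outer segment and cilium list had a log2 fold change below 0, and 19 of -1 or less, with a median of -2.60. Rom1 and Prph2, the tetraspanins of the disc rim, held 2161, 2296 and 2211 CPM and 5889.8, 6100.4 and 5866 CPM in the WT libraries and 217, 219 and 329.5 CPM and 390, 390.2 and 765 CPM in the rd10 libraries. Fscn2, a photoreceptor fascin, changed by -3.84, and Nxnl1, from which the rod-derived cone viability factor is made, by -3.74, with 330.4, 338 and 335 CPM in WT and 18.02, 19.2 and 38.8 CPM in rd10. The exception in size was Rpgr, a ciliary gene used in many cell types, at 69.02, 64.98 and 67.1 CPM and 40.8, 49.1 and 55.9 CPM (-0.45).

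Transcription factors of photoreceptors differed more among themselves. Of 15 measured, 13 had a log2 fold change below 0 (8 of -1 or less) and 2 above 0, with a median of -1.07. Nrl, the factor that sets rod fate, was at 1949, 1980.5 and 1987 CPM in WT and 79.3, 81.6 and 226 CPM in rd10, and its target Nr2e3 was at 637, 688 and 651 CPM and 47.5, 45.03 and 177 CPM. Esrrb, an orphan receptor of rods, changed by -3.28, with 45.2, 45.96 and 62.2 CPM in the rd10 libraries. Crx, shared by rods, cones and some bipolar cells, changed by -1.90, and Otx2, also shared by bipolar cells, by -0.42. Rxrg (0.49) and Sall3 (0.59), known from cones, were the 2 above 0, at -0.14 and -0.05 on the inner neuron scale.

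Of 9 genes of retinoid handling, 5 had a log2 fold change of -1 or less and 1 of 1 or more. Abca4, the retinoid flippase of discs, was at 2103, 2073 and 2422 CPM in WT and 263, 281 and 432 CPM in rd10 (-2.75). Rdh12, a retinol dehydrogenase of inner segments, was at 505, 534 and 505 CPM and 38.5, 46.9 and 111 CPM (-2.97). In the list of the photoreceptor synapse, 10 of 11 genes had a log2 fold change below 0 (7 of -1 or less), and Bsn, a scaffold of many synapses, was at 0.43 (but -0.21 on the inner neuron scale). Cabp4, which tunes the calcium channel of the photoreceptor terminal, was at -2.72, that channel's subunit Cacna1f at -1.32 and Unc119, a carrier of transducin, at -2.21 on the log2 scale. Ctbp2, which encodes the ribbon protein and a widely used corepressor, was at -0.27.

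Many of the largest losses fell on little studied transcripts. Of the lost genes, 103 (13.5%) are annotated as long noncoding in GENCODE M21, against 370 of all genes tested (3.16%) and 10 of the gained genes (1.60%). A further 52 lost genes (6.81%) had no entry there. The most reduced was Gm11754, at 11.7, 12.1 and 12.1 CPM in WT and 0.205, 0.125 and 0.185 CPM in rd10 (-6.14, SE 0.23), followed by Hdc, histidine decarboxylase, which makes histamine, at 22.9, 21.2 and 20.4 CPM and 0.246, 0.351 and 0.554 CPM (-5.85). The unnamed transcripts Gm14091 (-5.64), Gm16055 (-4.30), Gm14508 (-4.05), Gm16104 (-4.03), 1700119H24Rik (-4.06) and B230220B15Rik (-4.10) and the retinal noncoding RNA Rncr4 (-4.11) were all lower by more than 4 on the log2 scale. Ube4bos1 (-4.48) is antisense to Ube4b, and whether the counting used strand was not given, so reads of the pair may be shared. Ube4b itself was at 117, 109 and 123 CPM in WT and 164, 169 and 168 CPM in rd10.

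Among protein-coding genes of this group, Pdzph1, a protein with PDZ and pleckstrin homology domains, had the smallest p-value of all genes tested with W4 left out. It was at 396, 399.7 and 415 CPM in WT and 12.9, 14.2 and 16.3 CPM in rd10, a log2 fold change of -4.80 (SE 0.10). W4 held 11.1 CPM of Pdzph1, below all rd10 DMSO libraries, so its rank by p rests on W4 being left out. With W4 kept, its adjusted p was 0.19 by edgeR. Its values are therefore a description, as for the rod genes. Glb1l3, a galactosidase-like gene, changed by -5.54 and Sh2d1a, known as a signalling adaptor of lymphocytes, by -4.29, from 15.2, 13.9 and 15.8 CPM to 0.246, 0.452 and 1.97 CPM. Fam3c, a secreted factor, was at 253, 236 and 271 CPM and 45.1, 41.97 and 45.3 CPM, and Tnfsf12, the cytokine TWEAK, at 142, 135 and 139 CPM and 25.6, 26.3 and 27.4 CPM. Over all lost genes, D3 was the highest of the rd10 libraries in 555 of 764 and the lowest in 135, and the median gene kept 30.7% of the WT mean in D1, 32.4% in D2 and 36.5% in D3.

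On the main scale, cone transcripts as a group did not fall with those of the rods. Of 12 cone markers, 5 were higher, 3 were lower and 4 did not pass, near the 32.3% higher and 29.9% lower of all genes, with a median of 0.13 against -0.01 over all genes. Arr3, cone arrestin, was at 482, 499 and 541 CPM in WT and at 447, 550.4 and 491 CPM in rd10, and Opn1mw, the green opsin, at 184, 199 and 179 CPM and 170.2, 195 and 226 CPM. Both overlapped between the groups. Opn1sw, the blue opsin, was the exception among these, at 471, 483 and 535 CPM in WT and 181, 138 and 360.3 CPM in rd10 (-1.13, SE 0.32, adjusted p = 0.018 by edgeR). All rd10 libraries lay below WT for Opn1sw, and D3 again held more of it than D1 and D2. Its call was lost without W3 (-1.06) or without D1 (-0.99).

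Other cone genes moved less. Pde6c, the cone phosphodiesterase, was at 151, 160.4 and 179 CPM in WT and 259, 293 and 269 CPM in rd10 (0.75), and Gnb3, a beta subunit that cones share with ON bipolar cells, changed by 0.71. Slc24a2, the cone sodium-calcium exchanger, changed by 0.81. Gnat2, cone transducin, fell by 0.21 and Kcne2, a potassium channel subunit, by 0.56 on the log2 scale, but the call of Gnat2 was lost without any 1 of the libraries other than D3 and neither passed when scaled by library size. On the inner neuron scale 0 cone markers were higher and 8 were lower, with a median of -0.49, so whether cone RNA as a whole was kept depends on the scale.

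Markers of inner retinal neurons were higher in rd10 on the main scale. Over all genes 32.3% were higher and 5.35% gained, and the counts of cell type markers that follow stand beside these shares. In bipolar cells 10 of 13 markers were higher (7 gained), with a median of 1.02 (0.38 on the inner neuron scale). Trpm1, the channel of ON bipolar cells, was at 397, 373 and 400.1 CPM in WT and 831, 824 and 834 CPM in rd10, Isl1, a bipolar and amacrine factor, at 77.3, 78.2 and 76.9 CPM and 168, 173 and 161 CPM, and Grm6, the glutamate receptor of ON bipolar cells, at 208, 191 and 185 CPM and 429.7, 470.3 and 295 CPM. Prkca, a marker of rod bipolar cells, did not follow, at 431, 387 and 422 CPM and 435, 478 and 411 CPM (0.11, not called). Pcp2, also of rod bipolar cells, was not called with the 6 libraries (0.31), but it was called higher without D3 (0.46). Vsx1, a factor of cone bipolar cells, was the most raised of the list (1.14).

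Horizontal cells had 4 of 4 markers higher, with Lhx1 at 1.34, Onecut2 at 1.33 and Onecut1 at 1.06, factors of horizontal cell fate, and Calb1, a calcium buffer, at 0.27 (but -0.35 on the inner neuron scale). Amacrine cells had 11 of 14 tested markers higher (32.3% over all genes) and 0 gained, with a median of 0.67. Tfap2a (0.91) and Tfap2b (0.90), amacrine factors, were the most raised of them. Gad1, which makes GABA, was at 276, 287 and 277 CPM and 424, 443 and 419 CPM, and Gad2 at 56.9, 51.2 and 55.1 CPM and 83.2, 84.9 and 92.7 CPM. Ganglion cells, the output neurons, had 9 of 11 tested markers higher with the smallest median of these neurons (0.44), such as Rbpms at 32.4, 30.3 and 29.7 CPM and 54.6, 51.7 and 54.4 CPM and Pou4f1 at 22.8, 22.4 and 21.8 CPM and 35.5, 36.6 and 27.2 CPM, and Eomes, of light-sensing ganglion cells, changed by 0.64. On the inner neuron scale, which these lists define, the medians were 0.56 for horizontal, 0.05 for amacrine and -0.18 for ganglion markers, so the ganglion list turned its direction there.

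**Figure D3:**
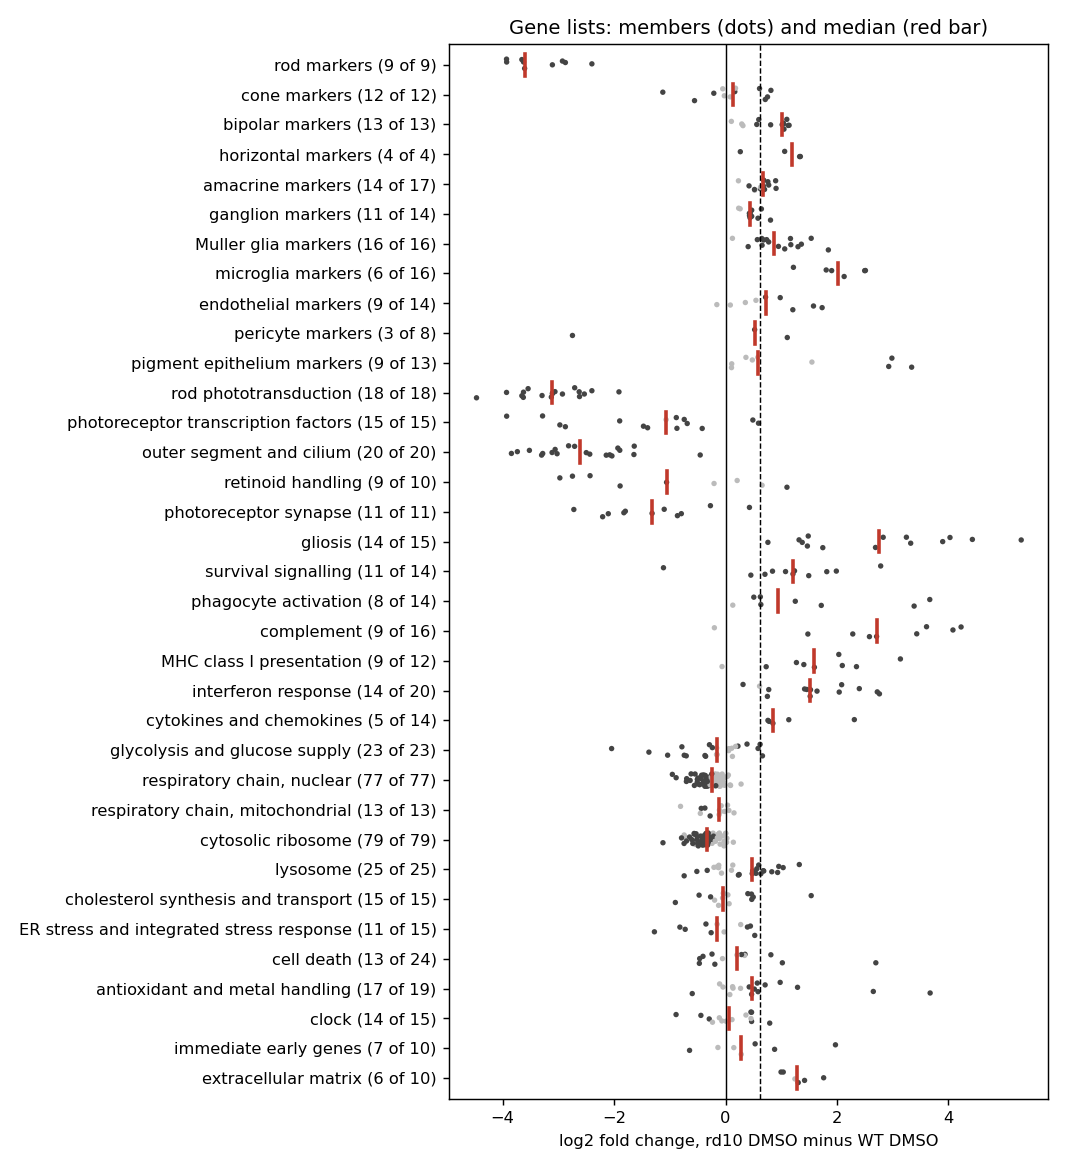
Log2 fold change of rd10 DMSO minus WT DMSO (x axis) of the members of 35 gene lists (y axis, with the number tested of the number listed). Dark dots are members with an adjusted p under 0.05, light dots did not pass, red bars are medians, and the dashed line marks 0 on the inner retinal neuron scale. The rod lists lie at medians of -3.61 and -3.11, the gliosis and complement lists at 2.76 and 2.71.

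Muller glia markers were higher in 15 of 16 cases and gained in 7 (32.3% and 5.35% over all genes), with a median of 0.86 (0.24 on the inner neuron scale). Members of this list changed by unequal amounts. Glul, glutamine synthetase, was at 2284, 2281 and 2184 CPM in WT and 3557, 3259 and 3133 CPM in rd10 (0.57, and -0.05 on the inner neuron scale), and Rlbp1, the retinaldehyde-binding protein, changed by 0.41 (-0.22), whereas Kcnj10, the potassium channel of Muller glia, was gained (1.17, and 0.53 on the inner neuron scale). Clu, clusterin, a secreted chaperone, was at 434, 454 and 542 CPM and 1857, 1724 and 1522 CPM (1.85), and Apoe, a lipid carrier, at 243, 285 and 319 CPM and 1060.3, 787 and 595 CPM (1.54).

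Genes of reactive gliosis had the highest median of the lists examined here. All 14 tested of 15 listed were higher and 13 were gained (32.3% and 5.35% over all genes), with a median of 2.76 (2.13 on the inner neuron scale, where 13 stayed higher). Members low in WT, such as Steap4, may be among the genes tested only through their rd10 level. Gfap, the intermediate filament of reactive glia, was at 23.1, 34.6 and 25.3 CPM in WT and 300.2, 282 and 243 CPM in rd10, a mean 9.94-fold higher (log2 fold change 3.32, SE 0.16, adjusted p = 1.3e-05 by edgeR). Serpina3n, a protease inhibitor of reactive astrocytes and Muller glia, was at 7.16, 5.49 and 11.4 CPM and 317, 279.7 and 339 CPM (5.31, SE 0.24). A2m, another protease inhibitor, was at 10.8, 9.48 and 18.6 CPM and 272, 244 and 309 CPM (4.43). The lowest rd10 library of each of these genes lay far above the highest WT library, and D3 stood with D1 and D2.

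Lcn2, an iron-binding acute phase protein, was at 3.79, 3.08 and 4.03 CPM in WT and 44.3, 40.1 and 77.4 CPM in rd10 (3.90), and Steap4, a metalloreductase, at 0.949, 1.56 and 0.817 CPM and 19.9, 21.3 and 13.04 CPM (4.03). Socs3 (2.69), which is induced by and restrains STAT3 signalling, the NF-kB cofactor Bcl3 (3.25) and Cebpd (1.75), a transcription factor of the acute phase, rose with them, as did the hyaluronan receptor Cd44 (2.83). Timp1, an inhibitor of metalloproteinases that is not in the gene table, was at 0.569, 0.655 and 0.758 CPM in WT and 6.27, 6.10 and 7.32 CPM in rd10 in the sums of the transcript table, given without a test.

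Survival signalling between photoreceptors and Muller glia, in which LIF, endothelin and FGF2 act, was raised in 10 of 11 genes tested, 7 of them gained (32.3% and 5.35% over all genes). Edn2, an endothelin known from injured photoreceptors, was at 7.31, 7.26 and 5.95 CPM in WT and 19.9, 27.1 and 34.3 CPM in rd10 (1.99), and Fgf2, a growth factor, at 33.9, 34.1 and 33.6 CPM and 86.1, 112 and 158 CPM (1.82). Both were highest in D3, the library with the most rod transcript. Lif was at 0.854, 0.857 and 0.817 CPM and 4.42, 7.45 and 3.01 CPM in the transcript table. Of the receptors, Osmr, for oncostatin M, was at 7.64, 9.02 and 11.2 CPM and 56.9, 68.1 and 64.8 CPM (2.78), and the shared chain Il6st changed by 0.71, whereas Lifr, the receptor of LIF, was lost, at 114, 112 and 128 CPM and 46.4, 52.6 and 64.1 CPM (-1.11). Stat3, the factor downstream of these receptors, was at 76.5, 74.7 and 82.3 CPM and 185, 217 and 249.7 CPM (1.49).

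Microglial transcripts were higher in rd10. Of 16 markers listed, 6 were in the gene table and all 6 were gained (5.35% over all genes), Laptm5, a lysosomal membrane protein of blood cells, by the most (2.51), with a median of 2.02 (1.38 on the inner neuron scale). Markers low in WT, such as Cx3cr1 and Laptm5, may be among the genes tested only through their rd10 level, so this count is a description. Csf1r, the receptor that microglia depend on, was at 11.2, 9.58 and 15.1 CPM in WT and 48.5, 44.3 and 39.9 CPM in rd10, Cx3cr1, the fractalkine receptor, at 4.55, 3.28 and 3.91 CPM and 19.1, 19.7 and 11.9 CPM, and Ctss, a lysosomal protease, at 9.87, 7.21 and 7.24 CPM and 46.3, 43.7 and 46.7 CPM. The other 10 markers were read from the transcript table, where each had a higher mean in rd10. There P2ry12, a marker of resting microglia, was at 2.42, 2.42 and 2.63 CPM in WT and 4.26, 5.57 and 6.58 CPM in rd10, and Tyrobp, an adaptor of phagocyte receptors, at 1.04, 1.11 and 1.69 CPM and 6.88, 5.95 and 4.37 CPM. Mpeg1, a pore-forming protein of macrophages, was at 3.61, 3.73 and 4.49 CPM and 31.8, 28.6 and 31.4 CPM (2.97, SE 0.11).

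Signals that act on these cells were raised too. Csf1, the ligand of Csf1r, was at 3.75, 4.18 and 4.08 CPM in WT and 21.1, 20.1 and 17.96 CPM in rd10 (2.31), Il34, its other ligand, changed by 0.76, and Cx3cl1, fractalkine, by 0.78. Cxcl16 (0.85) and Tgfb2 (1.14) completed the 5 of 14 cytokines and chemokines that were in the gene table, all of them higher, but on the inner neuron scale 2 were (0.21 at the median), and Il34, Cx3cl1 and Cxcl16 did not pass there. Among genes of activated phagocytes, 7 of 8 tested were higher and 4 gained (32.3% and 5.35% over all genes), and on the inner neuron scale 4 were higher and 1 lower. Lyz2, low in WT, may be among the genes tested only through its rd10 level. Lyz2, lysozyme of myeloid cells, was at 1.09, 0.807 and 2.16 CPM and 16.8, 9.76 and 24.2 CPM (3.67), Axl, a receptor for dying cells, changed by 1.72 and Spp1, osteopontin, by 0.51. Cd68 was at 1.47, 1.16 and 1.11 CPM and 5.41, 5.95 and 5.17 CPM in the transcript table. Cd74, the invariant chain of MHC class II, was at 0.190, 0.302 and 0.7002 CPM and 14.9, 4.79 and 4.24 CPM there and varied widely between the rd10 libraries.

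Complement was the other group with gains of this size. Of 16 genes listed 9 were tested, and 8 of these were gained (5.35% over all genes), with a median of 2.71 (2.08 on the inner neuron scale). Members low in WT, such as C3 and Cfi, may be among the genes tested only through their rd10 level, so this count is a description. C4b was at 12.1, 14.7 and 20.7 CPM in WT and 354, 279 and 245 CPM in rd10 (4.23, SE 0.22), and C3, the central component, at 2.42, 2.32 and 3.62 CPM and 58.7, 47.1 and 33.2 CPM (4.08). C1qa, C1qb and C1qc, the chains of the recognition molecule that microglia make, changed by 2.58, 2.71 and 2.28. The regulators Serping1 (3.61) and Cfi (3.43) rose with the components, while Cd59a, which blocks the terminal pore, was at 41.3, 38.3 and 48.1 CPM and 39.6, 32.6 and 38.1 CPM and was not called.

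Antigen presentation and interferon genes formed a further group of gains. For MHC class I, 8 of 9 tested genes were higher and 7 gained, against 32.3% and 5.35% over all genes. B2m, its light chain, was at 14.2, 16.2 and 17.8 CPM in WT and 94.6, 76.7 and 72.2 CPM in rd10 (2.35), H2-K1 changed by 2.10 and H2-D1 by 1.41, and Nlrc5, the transactivator of this pathway, was at 1.52, 1.26 and 1.17 CPM and 11.9, 13.6 and 9.04 CPM (3.14). The H2 genes are close copies, and estimated counts may be divided among them. Genes low in WT, such as Nlrc5, may be among those tested only through their rd10 level, so the counts of both lists are a description. Of the interferon list 13 of 14 tested genes were higher and 10 gained (the same shares over all genes apply), with a median of 1.52. Ifitm3, an antiviral membrane protein, was at 3.79, 3.43 and 5.08 CPM and 36.5, 22.96 and 23.005 CPM (2.76). Gbp2 changed by 2.72 and Irf1 by 1.64, whereas the transducer Stat2 moved less (0.31, but -0.31 on the inner neuron scale). In the transcript table Ifit1 was at 1.95, 1.61 and 1.75 CPM and 12.8, 17.1 and 9.72 CPM.

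**Figure D4:**
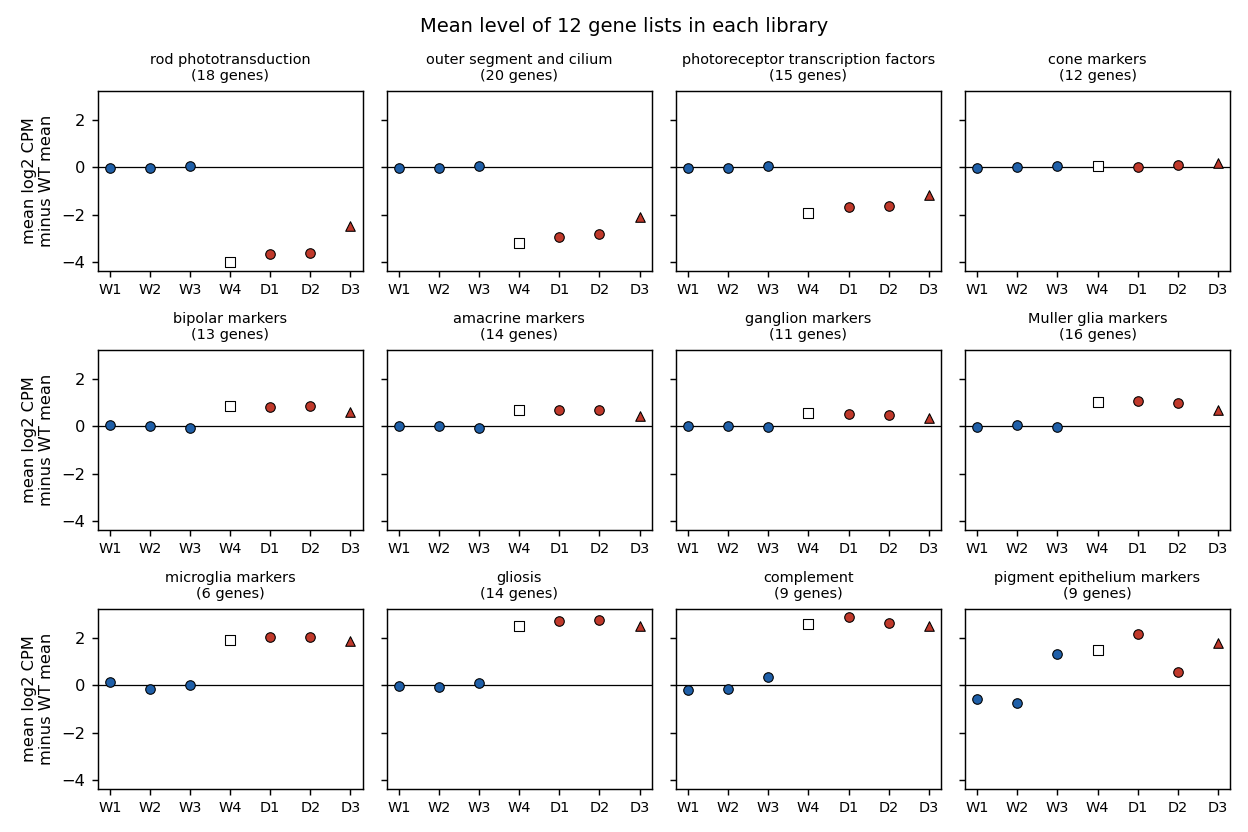
Mean log2 CPM of 12 gene lists in each library minus the mean of W1 to W3 (y axis), with WT in blue, rd10 DMSO in red (D3 as a triangle) and the omitted library W4 as an open square. For the rod lists D3 lies above D1 and D2, for gliosis, complement and microglia all 3 rd10 libraries lie well above WT, and the pigment epithelium markers vary within both groups.

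Metallothioneins and several single genes stood out among the other gains. Mt2 was at 9.58, 13.1 and 10.6 CPM in WT and 118, 114.75 and 189 CPM in rd10 (3.67), and Mt1 at 21.3, 24.9 and 20.6 CPM and 139, 122 and 157 CPM (2.65). Both bind zinc and copper. Tnfrsf1a, a receptor of tumour necrosis factor, was at 5.31, 4.74 and 4.90 CPM and 33.3, 33.8 and 29.1 CPM (2.70, SE 0.10), S100a6, a calcium-binding protein, changed by 3.09 and Flnc, filamin C, by 3.37. The largest gain of all genes named by the rule was that of Gm45861 (ENSMUSG00000110333), a gene without a known function, at 0.806, 0.756 and 0.642 CPM and 59.4, 56.9 and 13.04 CPM (5.88, SE 0.69). D3 held less of it than D1 and D2, and W4 held 77.4 CPM.

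Pigment epithelium markers varied between libraries of both groups, and some gains moved with them. Of 13 pigment epithelium markers 9 were tested and 3, Pmel, Tyrp1 and Dct, were gained, all 3 with overlap between the groups. Over all genes 32.3% were higher and 5.35% gained, and the calls were lost without W1 (all 3) or without W2 (Pmel and Tyrp1). The median of the list was 0.58 and turned to -0.08 on the inner neuron scale. Pmel, the fibril protein of melanosomes, was at 5.69, 5.14 and 16.9 CPM in WT and 117, 12.8 and 147 CPM in rd10, and Rpe65, the isomerase of the pigment epithelium, at 3.65, 3.43 and 30.05 CPM and 18.1, 6.45 and 15.1 CPM (not called, but 1.90 and called higher without W3). The summed share of the 9 genes ranged from 0.00682% to 0.0323% of counts in WT and from 0.0234% to 0.0776% in rd10, highest in W3, D1 and D3. Gpnmb, a gene of phagocytes and of pigment cells, was at 6.26, 6.45 and 18.2 CPM and 137, 32.5 and 148 CPM (3.38, SE 0.66), and Plin4, a lipid droplet protein, at 0.949, 1.01 and 4.90 CPM and 24.1, 10.8 and 51.6 CPM (3.70, SE 0.78). Both were highest in W3 within WT and lowest in D2 within rd10, as Pmel was. The same held for Col1a2, a fibrillar collagen, at 3.89, 6.15 and 12.9 CPM and 36.8, 13.999 and 25.8 CPM (1.76), and Slc7a11, the cystine transporter, at 8.02, 8.17 and 13.7 CPM and 28.2, 11.7 and 33.2 CPM (1.29), and for Lyz2, given above with the phagocyte genes. The part of pigment epithelium in these values was not tested.

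Vessel genes and matrix were raised in part. Of 9 endothelial markers tested 5 were higher and 3 gained (32.3% and 5.35% over all genes), with a median of 0.72 (0.10 on the inner neuron scale), such as Vwf at 9.72, 7.41 and 6.94 CPM in WT and 31.2, 26.9 and 21.5 CPM in rd10 (1.73) and Mfsd2a, a lipid transporter of the blood-retina barrier, at 1.58, whereas Pecam1 and Cldn5 overlapped between the groups (0.09 and 0.36, not called, though Cldn5 was called higher without D3, at 0.51). The pericyte genes Pdgfrb and Rgs5 changed by 1.11 and 0.52, and the median of the 3 pericyte markers tested, 0.52, turned to -0.10 on the inner neuron scale. Vtn, vitronectin, which is a pericyte marker in the brain and is also expressed by photoreceptors, was at 832, 886 and 832 CPM and 111, 98.9 and 168 CPM (-2.75). Of the matrix list 5 of 6 tested genes were higher (32.3% over all genes), among them Mmp2, a matrix protease (1.42), Col4a1, of basement membranes (1.00), and Fn1, fibronectin, at 59.6, 59.1 and 55.3 CPM and 144, 157 and 126 CPM (1.30). The mean log2 CPM of the matrix list was highest in W3 within WT (4.94, against 4.32 and 4.30) and lowest in D2 within rd10 (5.45, against 6.01 in D3 and a value close to it in D1), as for the pigment epithelium markers. In the transcript table Dcn, decorin, was at 0.380, 0.454 and 0.758 CPM in WT and 12.5, 1.63 and 23.6 CPM in rd10. Lens transcripts were near 0, with Cryaa at most at 3.09 CPM in the 6 libraries, and Crybb2 was not called (-0.75). The haemoglobin genes of blood were at -1.02 (Hba-a1) and -0.92 (Hbb-bs), and the values of Hba-a1 overlapped between the groups. The calls of both were lost by library size alone, with 9 libraries in 3 groups, and without W1, W2 or D2.

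Genes of glycolysis and glucose supply changed in both directions. Of 23 genes 10 were lower (3 lost) and 5 were higher, against 29.9% lower and 32.3% higher over all genes, with a median of -0.16 that turned to 0.05 by library size alone. Hk2, the hexokinase that photoreceptors use, was at 421, 422 and 611 CPM in WT and 115.03, 113 and 121 CPM in rd10 (-2.04), Slc16a1, a lactate transporter, at 258, 274 and 284 CPM and 103, 98.4 and 111 CPM (-1.37) and Ldha, lactate dehydrogenase A, at 1112, 1194 and 1111 CPM and 488, 528 and 634 CPM (-1.04). Pkm (-0.70) and Hk1 (-0.74) fell less. The isoforms Pfkm (0.58) and Ldhb (0.39) and the glucose transporter Slc2a3 (0.62) were higher on the main scale, but 0 genes of the list were higher on the inner neuron scale (Pfkm -0.04, Ldhb -0.24).

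Nuclear genes of the respiratory chain and the ribosome had no member called higher. Of 77 nuclear genes of the respiratory chain 37 were lower and 0 higher (29.9% and 32.3% over all genes), 0 of them lost, with a median of -0.25. Ndufa4, a respiratory chain subunit, was at -0.89, and Atp5a1 and Atp5b of the ATP synthase at -0.21 and -0.31. The call of Atp5a1 was lost without any 1 of the libraries other than D3, and neither ATP synthase gene passed by library size alone. Uqcrq of complex III was at 35.8, 39.9 and 32.6 CPM in WT and 24.99, 21.95 and 7.75 CPM in rd10 (-0.95), but it was -0.62 without D3 and did not pass with DESeq2 or by library size alone. Of 13 mitochondrially encoded genes 3 were lower, a share below the 29.9% of all genes, with a median of -0.11, mt-Nd3 at -0.44 and mt-Nd4l at -0.37, while mt-Nd1 (0.15) and mt-Nd2 (0.04) were not called. Their summed share of counts was higher in rd10, at 3.63%, 3.43% and 3.66% in W1 to W3 and 4.05%, 3.76% and 4.10% in D1 to D3. Of 79 cytosolic ribosomal proteins 51 were lower and 0 higher, with a median of -0.33, and Rpl10a was the 1 that was lost (-1.12), followed by Rps16 (-0.79). By library size alone the nuclear respiratory median was -0.04, the ribosomal median -0.12 and the mitochondrially encoded median 0.10, so the direction of the last turned. On the inner neuron scale 76 of the 77, 13 of the 13 and 79 of the 79 were lower.

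Lists of general cell functions held calls in both directions, against 32.3% higher and 29.9% lower over all genes, and the counts of the cholesterol and clock lists lie near or below those shares. Of 25 lysosomal genes 15 were higher and 3 lower, with Cd63 (1.32) and the lipase Lipa (1.03) gained, Lamp2 at 0.60 and Lamp1 not called (-0.07), but on the inner neuron scale 3 were higher and 12 lower. Of 24 genes of cell death 13 were tested, and 5 of these were higher and 5 lower (log2 fold changes from -0.47 to 2.70). The others, read from transcript sums without a test, each had a higher mean in rd10. Casp8 had means of 0.784 CPM in WT and 3.40 CPM in rd10 without overlap, and Fas 0.862 and 2.70 CPM. Casp4 and Nlrp3, among others, overlapped between the groups. Capn2, a calpain, was at 27.8, 27.2 and 28.01 CPM in WT and 56.7, 54.2 and 56.2 CPM in rd10 (1.02), and Bax was not called (-0.05). Of 11 stress response genes 5 were lower and 3 higher, from -1.28 to 0.52 on the log2 scale. Among the lower ones were Ddit4 (-1.28), Atf4 (-0.72), Pdia4 (-0.82) and Ddit3 (-0.35), and Hspa5 was not called (-0.15). In the antioxidant list 10 of 17 genes were higher and 1 lower. Gpx4, which protects membranes from peroxidation, fell by 0.60, whereas Gclm, of glutathione synthesis, rose by 0.71 on the log2 scale. On the inner neuron scale Gclm was not called (0.09). In cholesterol metabolism 5 of 15 genes were higher, Apoe among them, and 3 were lower, such as the exporter Abcg1 (-0.90), while Hmgcs1 was not called (-0.04). Of 14 clock genes 4 were higher and 3 lower. Arntl, which encodes BMAL1, fell by 0.89 and Per2 rose by 0.79 on the log2 scale, and Clock was not called (-0.07). On the inner neuron scale Per2 was not called (0.17). The labels give no hour of collection, and its part in the clock values was not tested. Of 7 immediate early genes 3 were higher and 1, Ier2, was lower (-0.65), Fos by 0.53 and Fosl2 by 0.88, and Egr1 was at 16.2, 18.95 and 17.7 CPM and 59.2, 88.4 and 58.1 CPM (1.97). The medians of the cell death (0.21), antioxidant (0.47), clock (0.06) and immediate early (0.28) lists turned to -0.42, -0.17, -0.57 and -0.37 on the inner neuron scale, and those of the stress response (-0.15) and cholesterol (-0.04) lists turned to 0.06 and 0.17 by library size alone.

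With D3 left out, both groups were of batch 1. Then 4265 genes were higher and 4195 lower, with 773 gained and 814 lost, and the rod losses were larger (Gnat1 -4.26, Pde6b -4.26), while the gains of Gfap (3.40), C4b (4.34) and Serpina3n (5.25) were close to those with D3. Over all gained genes of the main fit, D3 was the lowest of D1 to D3 in 350 of 626 and the highest in 149. The median gained gene was at 253% of the WT mean in D1, 233% in D2 and 229% in D3. Counts on genes ranged from 15512212 in D3 to 38160436 in D2 and from 19279298 to 23308430 in W1 to W3. Since D3 is the shallowest library and the 1 library of batch 2 in the comparison, batch, depth and the state of its rods cannot be told apart.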

How the data were processed

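Retinas of female mice were sequenced as strand-specific mRNA libraries (TruSeq stranded) made from total RNA, and per the study's methods the authors estimated transcript abundance with kallisto against the Ensembl mouse transcriptome and summed it to genes with tximport (build GRCm39, software versions not given in the sources used here). The deposited gene table holds estimated counts of 11702 genes (51.4% of its values whole within 1e-06), from 15512212 to 38160436 per library in the comparison, and the deposited transcript table estimated counts of 275112 transcripts, which were summed to genes through GENCODE M21 for genes outside the gene table. Tables of CPM and of the halofantrine comparison (its fold changes and p-values) were not used here.

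Estimated counts were rounded and tested with edgeR 4.0.16 in R 4.3.3 (filterByExpr, TMM, quasi-likelihood F test, Benjamini-Hochberg adjustment over 11696 genes, adjusted p under 0.05). SE is the size of the log2 fold change divided by the square root of F. CPM are scaled by TMM factors of all 10 libraries, whereas the fits take TMM factors of the libraries they hold. Transcript sums were brought to CPM with the scaled library sizes of the gene counts. The test was also run on simulated data. Precision is limited by 3 libraries a group. Alternatives were DESeq2 1.42.0, limma 3.58.1 (voom), other scalings and filters, other sets of libraries and each library left out. Named were Pde6b, 15 genes per direction by size (no overlap, mean of at least 10 CPM in the higher group), 5 by p, and of each list the first 2 members tested, the 2 largest called and members sharing their role; some genes that the rule names are not reported here. The comparison, the omitted library and the gene lists were chosen with earlier results of these data known. Promoter windows came from a RefSeq table (GRCm38.p6), were matched by symbol and leave out 1 chromosome. Lyz2, metallothionein, haemoglobin and H2 genes have close copies among which counts may be divided.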

Additional observations from a re-analysis of the deposited data

Results flagged for a closer look

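Among the 4 libraries labelled WT DMSO, W4 stood apart from the other 3 in the mean log2 CPM of 19 of the 37 gene lists. The measure is the gap between W4 and its nearest neighbour as a share of the whole range of the 4 libraries, and chance alone would put about 1 in 20 groups over the limit used (Dixon's 95% value for 4 samples). For photoreceptor genes the share was 0.982 for rod markers, 0.979 for rod phototransduction, 0.973 for outer segment and cilium, 0.964 for the photoreceptor synapse and 0.959 for photoreceptor transcription factors. For the other neurons it was 0.975 for horizontal, 0.933 for ganglion, 0.881 for bipolar and 0.881 for amacrine markers. For glia and vessels it was 0.911 for Muller glia, 0.861 for microglia and 0.839 for pericyte markers. For reactive and immune genes it was 0.994 for cytokines and chemokines, 0.948 for MHC class I, 0.933 for gliosis, 0.929 for survival signalling and 0.899 for the interferon response. It was 0.887 for cell death and 0.887 for antioxidant genes. In each case W4 lay on the side of the rd10 libraries. W4 was left out for its rod transcripts and for lying with the rd10 libraries over all genes, so these values restate that choice for every list, the rate by chance does not apply to them, and they are given as a description.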

How the results depend on the processing

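With DESeq2, limma-voom, DESeq2 size factors, no filter, a mean of at least 10 CPM, and 9 libraries with or without batch, all counts of higher, lower, gained and lost genes stayed within 1.5 times those given. Without 1 library each, 3232 to 4265 genes were higher, 2904 to 4195 lower, 559 to 773 gained and 732 to 814 lost. With W4, edgeR gave 0 higher, 0 lower, 0 gained and 0 lost (3108 at an unadjusted p under 0.05), limma-voom 0 of each (2832), and DESeq2 91, 498, 22 and 369. The inner neuron scale gave 813, 8279, 126 and 2479. Library size alone gave 5409 higher, 2031 lower, 1290 gained and 574 lost, so gained genes outnumbered lost ones there. Gene sums of the transcript table, with 17324 genes tested and added after the data were seen, as were DESeq2 and limma-voom with W4, gave 1311 gained and 1237 lost. Lens markers had no gene left at a mean of at least 10 CPM. The causes of these shifts were not tested. In the gene sums of the transcript table both the source of the counts and the number of genes tested changed.

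Medians of lists turned on the inner neuron scale for cone (-0.49), ganglion (-0.18), pericyte (-0.10) and pigment epithelium markers (-0.08), lysosome (-0.15), cell death (-0.42), antioxidant (-0.17), clock (-0.57) and immediate early genes (-0.37). By library size alone they turned for glycolysis (0.05), mitochondrially encoded (0.10), cholesterol (0.17) and stress response genes (0.06), and Hmgcs1 was at 0.17. Over the fits without 1 library the stress response median ranged from -0.25 to 0.05 (without D3) and the clock median from -0.01 (without D2) to 0.13. Genes that turned on the inner neuron scale were Bsn (-0.21), Calb1 (-0.35), Fos (-0.10), Glul (-0.05), Lamp2 (-0.03), Ldhb (-0.24), Opn1mw (-0.53), Pcp2 (-0.32), Pfkm (-0.04), Pou4f1 (-0.05), Prkca (-0.52), Rgs5 (-0.10), Rlbp1 (-0.22), Rxrg (-0.14), Sall3 (-0.05), Spp1 (-0.11), Stat2 (-0.31), Ube4b (-0.09), mt-Nd1 (-0.47) and mt-Nd2 (-0.59).

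Of 174 named genes that were called, 22 lost the call without 1 library, and 0 changed sign. The values where the call was lost were Atp5a1 (-0.23 to -0.16 without W1, W2, W3, D1 or D2), Bsn (0.33 to 0.43 without W2, W3, D1 or D2), Calb1 (0.25 to 0.28 without W1, W2, W3 or D2), Col1a2 (1.63 without W2), Dct (2.66 without W1), Fos (0.50 without W1 or W2), Gnat2 (-0.24 to -0.18 without W1, W2, W3, D1 or D2), Hba-a1 (-1.04 to -0.65 without W1, W2 or D2), Hbb-bs (-1.05 to -0.59 without W1, W2, W3, D1 or D2), Ier2 (-0.68 to -0.54 without W1 or W2), Kcne2 (-0.55 to -0.44 without W2, W3, D1 or D2), Opn1sw (-1.06 to -0.99 without W3 or D1), Pmel (3.06 to 3.07 without W1 or W2), Rlbp1 (0.34 to 0.37 without W1, W3, D1 or D2), Rxrg (0.35 to 0.46 without W1 or D1), Sall3 (0.47 to 0.66 without W1, W2, W3, D1 or D2), Slc7a11 (1.15 to 1.18 without W1, W2 or D1), Stat2 (0.25 without W1), Tyrp1 (2.64 without W1 or W2), Uqcrq (-1.10 to -0.87 without W1, W2, W3 or D2), mt-Nd3 (-0.51 to -0.37 without W1, W2, W3 or D1) and mt-Nd4l (-0.38 to -0.34 without W1, W3 or D2). None of the 174 lost its call without D3. By library size alone 13 lost it (Atp5a1, Atp5b, Ctbp2, Ddit3, Gnat2, Hba-a1, Hbb-bs, Ier2, Kcne2, Rpgr, Uqcrq, mt-Nd3 and mt-Nd4l). Calls were gained for Pcp2 without D3 (0.46), with batch (0.42) and by library size (0.52), for Cldn5 (0.51), Cryaa (-2.91) and Lamp1 (-0.14) without D3, for Rpe65 without W3 (1.90) and by library size for Prkca (0.31), Opn1mw (0.29), mt-Nd1 (0.36, and 0.16 with DESeq2) and mt-Nd2 (0.24). On the inner neuron scale calls as lower were gained for Arr3 (-0.65), Bax (-0.68), Cd59a (-0.82), Clock (-0.68), Hmgcs1 (-0.66), Hspa5 (-0.80) and Lamp1 (-0.69). They were also gained for Opn1mw (-0.53), Pcp2 (-0.32), Prkca (-0.52), mt-Nd1 (-0.47) and mt-Nd2 (-0.59), which turned. Calls were lost there for 19 genes that kept their direction. Among them were Eomes (0.02), Gad1 (0.00), Gad2 (0.07), Gclm (0.09), Gnb3 (0.10), Il6st (0.08), Pde6c (0.13), Per2 (0.17) and Slc2a3 (0.00). The rest were Col1a2 (1.13), Cx3cl1 (0.15), Cxcl16 (0.21), Fosl2 (0.25), Il34 (0.13), Onecut1 (0.42), Rbpms (0.19), Slc24a2 (0.19), Slc7a11 (0.69) and Tfap2a (0.27). Genes that turned and lost theirs included Glul, Lamp2, Pou4f1, Rgs5, Rxrg, Sall3, Spp1, Fos and Rlbp1. With limma-voom Pmel (2.85), Tyrp1 (2.63) and Slc7a11 (1.09) lost theirs. No paired analysis was possible because the labels give the groups no shared animal, litter or day. Genes absent from the gene table are given without a test, and a gene that missed the threshold is not shown to be unchanged.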
